A study of Rattus norvegicus with 6 samples.

Results

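The kidney of Cy/Cy rats at 3 days of age was compared with its age-matched +/+ reference on 1 array, which is 1 of the 6 arrays of the series. The array was taken by its label: the Cy5 channel carried kidney RNA of Cy/Cy rats and the Cy3 channel kidney RNA of +/+ rats, both 3 days old and both of the Han:SPRD strain. The other arrays used here carried Cy/+ kidney at 3 days, Cy/Cy kidney at 7 days and Cy/+ kidney at 7 days in Cy5, each against a +/+ pool of its own age in Cy3. RNA came from the left kidney of rats under pentobarbital anaesthesia, was pooled by genotype and was amplified before labelling. The number of animals in a pool is not given in the sources used here. Each mutant pool was hybridised once, in Cy5, with no dye swap, so dye and genotype cannot be told apart. There was 1 sample for each genotype at each age, so no test across animals could be made, and the values below describe these pools.

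The Cy allele is a missense mutation of Anks6, which encodes an ankyrin-repeat and SAM-domain protein that sits at the base of the primary cilium with other cystic disease proteins. Han:SPRD rats with 1 copy develop slowly progressing cysts, mostly from proximal tubules, and rats with both copies mutated develop massive cysts within weeks of birth. The rat kidney is still forming nephrons in the first days after birth, so its RNA at this age holds progenitor, tubular, stromal and vascular transcripts together. The series title names retinoid X receptor (RXR) signalling in early disease as its question. In whole-kidney RNA, fewer cells of a type and less RNA per cell cannot be told apart.

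Each gene was read by 60-base probes, and a probe's sequence says which stretch of the transcript a ratio rests on. The probes of genes that lead the results are given here as the file holds them, 5′ to 3′, with positions in rat build rn3 as the file gives them. No annotation of that build was used, so exon or UTR is not stated. The first 3 are probes for genes of brown and white fat, the next 3 read genes with large differences and other roles, and the last 4 read genes that were lower in Cy/Cy kidney.
Ucp1 (chr19:26532513-26532572, minus strand): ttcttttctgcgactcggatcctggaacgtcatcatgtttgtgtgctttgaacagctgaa
Cox8b (chr1:201207352-201207411, minus strand): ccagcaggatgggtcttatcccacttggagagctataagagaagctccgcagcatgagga
Retn (chr12:2499645-2499704, minus strand): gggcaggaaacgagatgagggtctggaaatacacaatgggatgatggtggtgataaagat
Wfdc21 (chr10:71990056-71990115, plus strand): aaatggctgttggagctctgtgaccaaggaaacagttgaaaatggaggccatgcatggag
Mfap5 (chr4:159226787-159226846, plus strand): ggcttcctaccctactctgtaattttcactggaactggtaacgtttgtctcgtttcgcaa
Havcr1 (chr10:31858251-31858310, plus strand): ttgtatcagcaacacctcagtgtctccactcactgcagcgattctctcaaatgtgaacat
Igfbp1 (chr14:87973881-87973940, plus strand): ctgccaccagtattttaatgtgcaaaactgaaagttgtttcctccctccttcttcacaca
Hmox1 (chr19:13974162-13974221, plus strand): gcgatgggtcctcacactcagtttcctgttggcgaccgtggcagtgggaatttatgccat
Vnn1 (chr1:22090707-22090766, minus strand): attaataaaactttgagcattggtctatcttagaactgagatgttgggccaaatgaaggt
Fkbp5 (chr20:6637827-6637886, minus strand): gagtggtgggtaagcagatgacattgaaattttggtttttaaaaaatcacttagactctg

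The genes Sult1c2a and Sult1c2 encode closely related sulfotransferases that lie near each other on chromosome 9, so their probes are shown separately. The brightest probes of the pair shared no run longer than 5 bases. One further probe of each gene shared a run of 21 bases, shown in capitals, so these last probes may each bind both transcripts. The further probe named Sult1c2a is placed by the file on the plus strand among the Sult1c2 probes, and not with the other Sult1c2a probes on the minus strand, so which of the 2 genes it reads is uncertain.
Sult1c2a, brightest probe (chr9:1030881-1030940, minus strand): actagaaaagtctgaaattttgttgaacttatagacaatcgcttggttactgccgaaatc
Sult1c2, brightest probe (chr9:994117-994309, plus strand): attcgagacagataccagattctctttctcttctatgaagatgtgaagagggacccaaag
Sult1c2a, further probe (chr9:996120-996179, plus strand): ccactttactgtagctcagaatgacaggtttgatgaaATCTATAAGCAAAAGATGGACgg
Sult1c2, further probe (chr9:591102-591161, plus strand): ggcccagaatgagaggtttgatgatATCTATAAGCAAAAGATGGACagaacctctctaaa

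Most of the transcriptome of Cy/Cy kidney at 3 days lay close to its +/+ reference. Of 41012 probes, 26787 were well above background in both channels, and they gave a ratio for 11302 named genes, each read by its brightest probe. The log2 ratio of Cy/Cy over +/+ had a median of 0.00 and an SD of 0.19 over these genes. At least 1.5-fold apart were 71 genes that were higher (0.628% of the genes) and 37 that were lower (0.327%). At least 2-fold apart were 16 higher genes (0.142%) and 3 lower genes (0.0265%).

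Several measures bear on how far a single ratio can be read. The log2 ratio varied by 0.05 (pooled SD) between spots of a probe, for 199 probes with replicate spots, and by 0.12 (pooled SD) between probes of a gene, for 2907 genes with several probes. Both SDs cover measurement on the array and leave out the animals. Of the 108 genes past 1.5-fold, 82 rested on 1 probe and 26 on several, and 24 of the 26 had all probes on the same side of 0. The exceptions were Fbp1 (probes at -0.17 and 0.75) and Ptma (probes at -0.09 and 0.74). No spot of the array was saturated. In the 3-day array labelled +/+, where both channels are labelled as +/+ kidney, the SD over the same genes was 1.13, so it was not used as a baseline.

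Above a mean log2 signal of 16 the ratio climbed with brightness. The median log2 ratio of the 94 genes between 16 and 17 was 0.29, and that of the 17 genes above 17 was 0.60, while the 5 bands of lower signal had medians between -0.03 and 0.03. The ratios deposited by the scanner software gave 0.08 and 0.31 for the 2 bright bands. All 21 genes past 1.5-fold in these bands were higher in Cy/Cy kidney, so the values of Rps23, Rps6 and Actb are set beside their band median below. Without the bright bands, a choice made after seeing the data, 50 genes were at least 1.5-fold higher and 37 at least 1.5-fold lower.

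**Figure D1:**
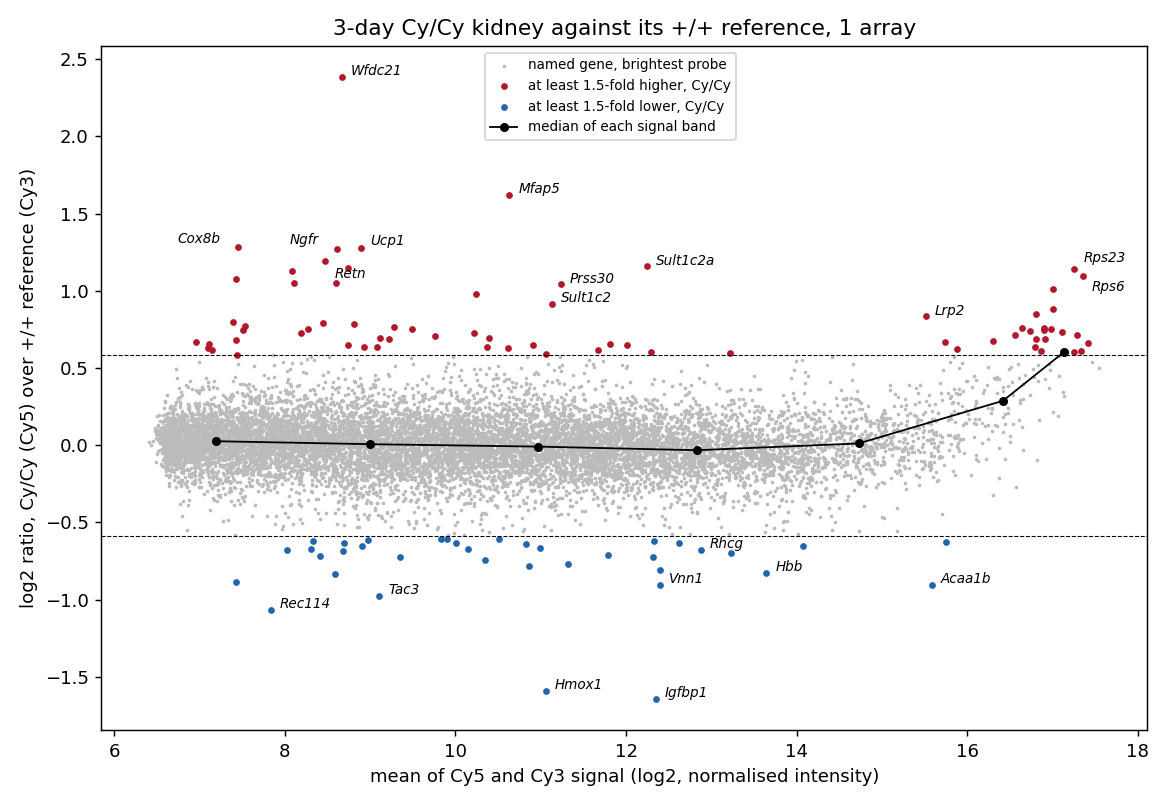
Each point is 1 of 11302 named genes on the 3-day Cy/Cy array, with its mean log2 signal of both channels on the x axis and its log2 ratio of Cy/Cy over +/+ on the y axis. Dashed lines mark 1.5-fold, and the black line joins the medians of 7 signal bands, which stay near 0 up to a signal of 16 and reach 0.60 above 17.

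The highest ratios in Cy/Cy kidney were those of Wfdc21 and Mfap5. Wfdc21, which encodes a small secreted protein of the WAP four-disulfide family, had a normalised signal of 928 in Cy/Cy kidney, against 178 in +/+ kidney, a ratio of 5.22 (log2 2.38, 1 probe). Mfap5, a glycoprotein of elastic microfibrils, had 2782 in Cy/Cy kidney and 904 in +/+ kidney (log2 1.62, 1 probe). The others of the 15 highest genes lay between 1.04 and 1.29 on the log2 scale.

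Of the 15, Ucp1, Cox8b and Retn are best known from fat. Ucp1, the uncoupling protein of brown fat, had a signal of 738 in Cy/Cy kidney and 305 in +/+ kidney, a log2 ratio of 1.28 from 8 spots of 1 probe. Cox8b, a subunit of cytochrome c oxidase used in brown fat and muscle, had 274 in Cy/Cy kidney and 112 in +/+ kidney (log2 1.29). Retn, the hormone resistin of white fat, had 537 in Cy/Cy kidney and 235 in +/+ kidney (log2 1.19). Of the 12 genes of the adipose list 10 were measured, with a list median of 0.52 beside 0.00 over all genes. At least 1.5-fold higher were 4 of the 10 (Ucp1, Retn, Cidea at 0.70 and Adipoq at 0.69), and 0 were lower. Over all genes 0.628% were higher and 0.327% lower. The list thus stood higher in Cy/Cy kidney by its median, with Ucp1 and Retn farthest out.

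Lep and Plin1, the other adipose genes, were not well above background in both channels. Pck1, which fat shares with the proximal tubule, had 43482 in Cy/Cy kidney and 48189 in +/+ kidney and outweighs the rest of the list. The summed signal of the other 9 was 8680 in Cy/Cy kidney and 6336 in +/+ kidney, and that of all 10 was 52162 in Cy/Cy kidney and 54525 in +/+ kidney. Whether fat attached to the dissected kidneys differed between the pools was not tested. Of other tissues that a dissection can carry, 4 of 14 adrenal genes were measured (log2 ratios of 0.05 to 0.39), 6 of 14 skeletal muscle genes (-0.33 to 0.27), 7 of 14 liver genes (-0.31 to 0.40) and 6 of 12 neural and glial genes (-0.12 to 0.14), and none of them was past 1.5-fold. Among the kidney defining genes 12 of 12 were measured.

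Another 4 of the 15 are best known outside the tubule, and each was read by 1 probe. Ngfr, the low-affinity neurotrophin receptor, had 605 in Cy/Cy kidney and 251 in +/+ kidney (log2 1.27, 9 spots). Elavl4, a neuronal RNA-binding protein, had 397 in Cy/Cy kidney and 192 in +/+ kidney (log2 1.05). Nell2, a secreted protein best known from neurons, had 558 in Cy/Cy kidney and 270 in +/+ kidney (log2 1.05). Cnmd, the cartilage glycoprotein chondromodulin, had 249 in Cy/Cy kidney and 118 in +/+ kidney (log2 1.07). All 4 were dim, and the neural and glial list, which holds none of them, had a median of 0.02 (-0.04 relative to the median gene under median centring).

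Of the genes of tubular injury, 2 were past 1.5-fold, both dim and both higher in Cy/Cy kidney. Over all genes 0.628% were at least 1.5-fold higher. Havcr1, which encodes kidney injury molecule 1, had 400 in Cy/Cy kidney and 183 in +/+ kidney (log2 1.13). Ccl2, the chemokine that draws monocytes, had 636 in Cy/Cy kidney and 288 in +/+ kidney (log2 1.14, 10 spots). On the 7-day Cy/Cy array Havcr1 was at 0.05 and Ccl2 at 0.34. The list of tubular injury and dedifferentiation genes had 27 measured members of 28 and a median of 0.09 (0.19 relative to the median gene under median centring), and the other 25 lay between -0.28 and 0.40. The macrophage and myeloid genes had 0 of 19 measured members past 1.5-fold, a median of -0.06 and a range of -0.27 to 0.23.

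The sulfotransferase pair was higher on every probe. Sult1c2a had a signal of 7257 in Cy/Cy kidney and 3252 in +/+ kidney on its brightest probe (log2 1.16), and its second probe at the same locus and strand was at 1.17. The further probe of that name, placed among the Sult1c2 probes, was at 0.83. Sult1c2 had 3069 in Cy/Cy kidney and 1628 in +/+ kidney (log2 0.91), and its 3 probes lay between 0.82 and 0.91. The Sult1c2 probe that shares a run of 21 bases with the one named Sult1c2a was at 0.88. In the list of sulfotransferase and drug metabolism genes 20 of 24 were measured, with a median of 0.13. In it 12 lay above 0 and 8 below, and 3 were at least 1.5-fold higher (beside 0.628% of all genes) and 0 lower (beside 0.327%). Of other sulfotransferases, Sult1a1 was at -0.55, Sult1c3 at -0.23, Sult1b1 at 0.22 and Sult2b1 at 0.07. The third gene past 1.5-fold was Cyp27b1, the enzyme that activates vitamin D, with 810 in Cy/Cy kidney and 477 in +/+ kidney (log2 0.76). Cyp24a1, the enzyme that degrades active vitamin D, had 899 in Cy/Cy kidney and 1345 in +/+ kidney (log2 -0.58, just short of 1.5-fold). Its second probe was at -0.25. Prss30, a serine protease of epithelia, had 3466 in Cy/Cy kidney and 1683 in +/+ kidney (log2 1.04).

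Ribosomal and other very abundant transcripts were also among the higher genes, and 21 of the 71 had a signal above 16. Rps23 and Rps6, proteins of the small ribosomal subunit, had log2 ratios of 1.14 and 1.09 at mean log2 signals of 17.26 and 17.36, where the band median was 0.60. Of 80 ribosomal protein genes measured, 10 were at least 1.5-fold higher, beside 0.628% of all genes. All 10 were among the 40 with a signal above 16, whose median was 0.44. The other 40 had a median of 0.02 and 0 past 1.5-fold. A further 71 bright genes that make no ribosomal protein had a median of 0.27, with 11 at least 1.5-fold higher. Actb, the cytoskeletal actin gene of the housekeeping list, had a log2 ratio of 0.85 at a mean log2 signal of 16.81. The median of its band was 0.29. The median of the 12 housekeeping genes was 0.04 (0.35 relative to the median gene under median centring). The genes of the bands at 16 to 17 and above 17 had medians of 0.30 and 0.49 on the 3-day Cy/+ array. On the 7-day Cy/Cy array, which has another reference pool, the same genes had medians of 0.17 and 0.47. Whether the climb at high signal comes from the dyes or from the pools was not tested.

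**Figure D2:**
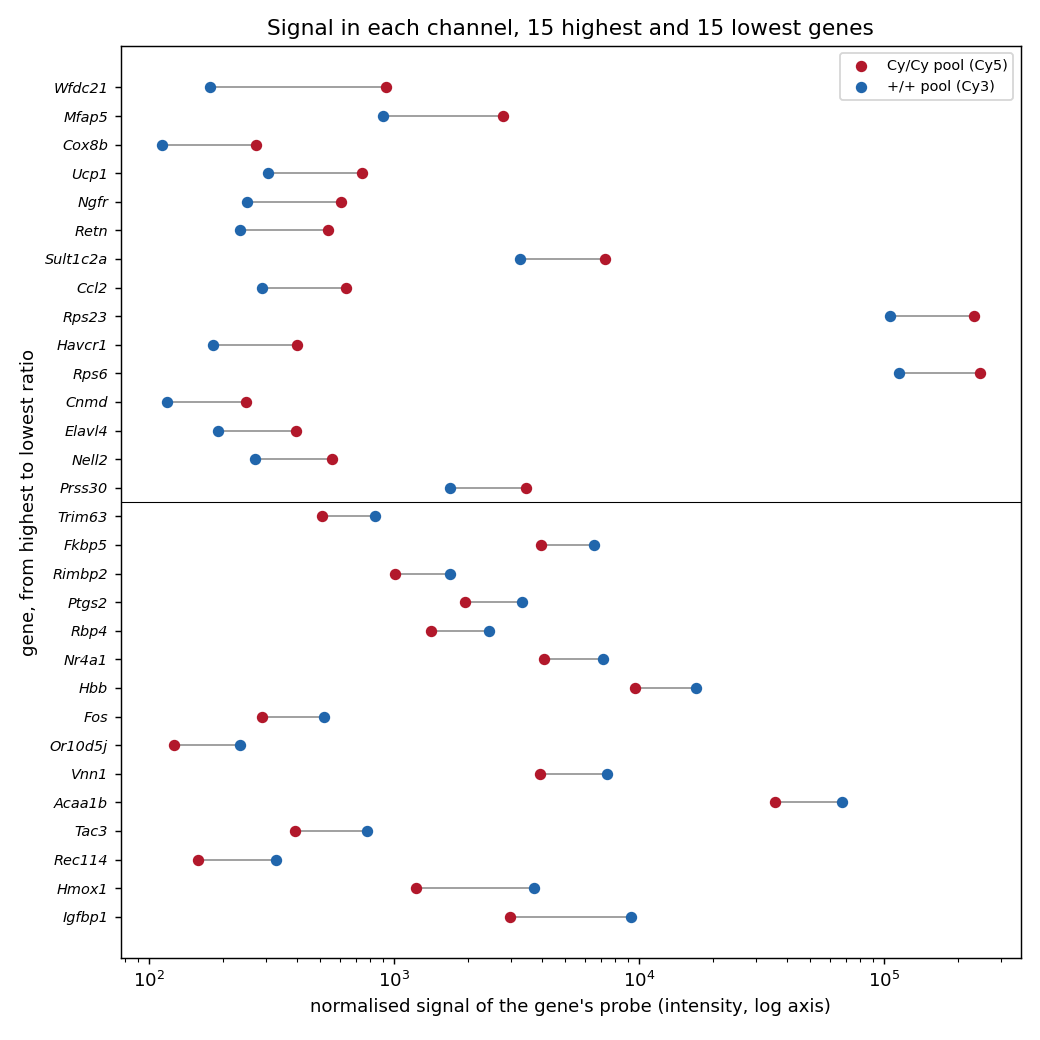
The normalised signal of the probe of each of the 15 highest and 15 lowest genes, on a log axis, in the Cy/Cy pool (red, Cy5) and in the +/+ pool (blue, Cy3). Igfbp1 and Hmox1 show the widest gaps toward +/+ and Wfdc21 and Mfap5 the widest toward Cy/Cy, and Rps23 and Rps6 lie apart at the bright end.

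The lowest ratios in Cy/Cy kidney were those of Igfbp1 and Hmox1. Igfbp1, a secreted binding protein for insulin-like growth factors that insulin represses, had a signal of 2957 in Cy/Cy kidney and 9244 in +/+ kidney (log2 -1.64, 3.13-fold lower, 1 probe). Hmox1, the heme-degrading oxygenase 1, had 1230 in Cy/Cy kidney and 3709 in +/+ kidney (log2 -1.59, 3.02-fold lower, 8 spots of 1 probe). These 2 stood apart from the others of the 15 lowest genes, which lay between -1.07 and -0.72.

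Acaa1b, Vnn1 and Rbp4 were also among the 15. Acaa1b, a peroxisomal thiolase that completes fatty acid oxidation, had 35931 in Cy/Cy kidney and 67316 in +/+ kidney (log2 -0.91). Vnn1, a pantetheinase under control of the fatty acid receptor PPARα in mouse liver, had 3948 in Cy/Cy kidney and 7382 in +/+ kidney (log2 -0.90). Rbp4, the plasma carrier of retinol, had 1415 in Cy/Cy kidney and 2432 in +/+ kidney (log2 -0.78). In the list of peroxisome and fatty acid oxidation genes 24 of 26 were measured and 0 were past 1.5-fold, with a median of -0.11 that turned to 0.15 relative to the median gene under median centring. G6pc1, the last enzyme of gluconeogenesis, was at -0.55, and of the other 9 measured genes of that list 8 lay between -0.45 and 0.16, while the probes of Fbp1 disagreed.

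Fkbp5, Trim63 and Ptgs2 are genes that hormones or stress induce in other tissues, and they too were among the 15. Fkbp5, a co-chaperone of the glucocorticoid receptor that glucocorticoids induce, had 3960 in Cy/Cy kidney and 6552 in +/+ kidney (log2 -0.73), with 3 probes between -0.73 and -0.56. Trim63, a ubiquitin ligase known from wasting muscle, had 507 in Cy/Cy kidney and 835 in +/+ kidney (log2 -0.72), with 2 probes at -0.72 and -0.53. Ptgs2, the inducible cyclooxygenase that kidney development after birth requires in mice, had 1954 in Cy/Cy kidney and 3329 in +/+ kidney (log2 -0.77, 10 spots).

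Fos and Nr4a1, genes of the immediate early list, were also lower. Fos, a subunit of the AP-1 factor, had 289 in Cy/Cy kidney and 515 in +/+ kidney (log2 -0.83). Nr4a1, an orphan nuclear receptor switched on within minutes of a stimulus, had 4071 in Cy/Cy kidney and 7131 in +/+ kidney (log2 -0.81). Of 20 measured genes of the immediate early list these 2 were past 1.5-fold, while 0.327% of all genes were at least 1.5-fold lower. In the list 14 lay below 0 and 6 above, and the median was -0.11 (-0.19 relative to the median gene under median centring). Myc was at -0.52 and Ier3 at -0.42.

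Hbb was the erythroid gene past 1.5-fold. Hbb, adult beta globin, had 9615 in Cy/Cy kidney and 17039 in +/+ kidney (log2 -0.83, 1 probe), and 8 of 9 measured erythroid genes lay below 0, with a list median of -0.21. Globin genes are near-identical copies, and Hbb-b1, read by another probe, was at -0.09. How much blood each pool held was not measured.

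The last 4 of the 15 have no role in kidney that is settled here, and 3 of them were dim. Rec114, a meiotic recombination protein, had 157 in Cy/Cy kidney and 330 in +/+ kidney (log2 -1.07). Tac3, the precursor of neurokinin B, had 394 in Cy/Cy kidney and 775 in +/+ kidney (log2 -0.98). Or10d5j, an olfactory receptor gene, had 127 in Cy/Cy kidney and 234 in +/+ kidney (log2 -0.89). Rimbp2, a presynaptic scaffold, had 1005 in Cy/Cy kidney and 1684 in +/+ kidney (log2 -0.74), with 3 probes between -0.74 and -0.30.

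Along the nephron, proximal tubule genes had a median above 0 and the more distal segments medians below 0. Of all genes 51.1% lay above 0, 0.628% were at least 1.5-fold higher and 0.327% at least 1.5-fold lower. Of 38 proximal tubule genes 35 were measured: 26 lay above 0 and 9 below, 3 were at least 1.5-fold higher and 0 lower, and the median was 0.20 (0.37 relative to the median gene under median centring). Lrp2, the endocytic receptor megalin, had 62467 in Cy/Cy kidney and 35047 in +/+ kidney (log2 0.83, 1 probe). Slco1a3, a transporter of organic anions, was at 0.66 with 2 probes at 0.42 and 0.66. Slc22a24, a carrier of the organic anion transporter family, was at 0.62. Slc13a3, which takes up dicarboxylates, was at 0.52 at a mean log2 signal of 16.60, where the band median was 0.29.

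Intercalated cells, which secrete acid or base in the collecting duct, gave the lowest list median. All 16 genes of the list were measured and all 16 lay below 0, between -0.68 and -0.03, with a median of -0.35. At least 1.5-fold lower were Rhcg, an ammonia channel, with 5953 in Cy/Cy kidney and 9510 in +/+ kidney (log2 -0.68), and Atp6v1b1, a proton pump subunit, with 334 in Cy/Cy kidney and 517 in +/+ kidney (log2 -0.63). Slc4a1, the chloride-bicarbonate exchanger of acid-secreting cells and of red cells, was at -0.51, and Atp6v0d2, another pump subunit, at -0.44.

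Other segments were lower by less, with 0 members past 1.5-fold. In the distal convoluted and connecting tubule list 11 of 14 measured genes lay below 0 (median -0.21), led by the calcium-binding Calb1 (-0.56, with 4 probes between -0.60 and -0.17), Fxyd2 (-0.55) and S100g (-0.53). In the thick ascending limb list 12 of 15 measured genes lay below 0 (median -0.17), with Egf, the urinary growth factor, at -0.44 and Casr, the calcium-sensing receptor, at -0.35. In the podocyte list 11 of 16 measured genes lay below 0 (median -0.15), with Ptpro, a receptor phosphatase of podocytes, at -0.45. Principal cells of the collecting duct had a median of -0.08. Relative to the median gene under median centring, the thick ascending limb median was -0.030 and the podocyte median -0.06.

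Cell cycle genes had a median above 0. Of the 34 cell cycle genes all were measured and 33 lay above 0, with a median of 0.28. The only one past 1.5-fold was Rrm2, a subunit of the reductase that makes deoxynucleotides, with 1528 in Cy/Cy kidney and 922 in +/+ kidney (log2 0.73, 2 probes at 0.42 and 0.73). Ccne1, which drives entry into DNA synthesis, and the mitotic survival protein Birc5 were both at 0.55, and a second probe of Ccne1 was at 0.25. Ccnd1, cyclin D1, had 26595 in Cy/Cy kidney and 17863 in +/+ kidney (log2 0.57), just short of 1.5-fold, with a second probe at 0.38.

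Among genes of the growing nephron, Ret, the receptor of the ureteric tip, had 156 in Cy/Cy kidney and 98.2 in +/+ kidney (log2 0.67), and its coreceptor Gfra1 was at 0.49. Fgf8, a growth factor of the early nephron, had 173 in Cy/Cy kidney and 110 in +/+ kidney (log2 0.66). Ret and Fgf8 were close to background, and their lists had medians of 0.05 (18 measured; 0.18 relative to the median gene under median centring) and 0.12 (19 of 23 measured). Col1a2, a chain of type I collagen, was at 0.63 with its second probe at 0.12, and the 32 measured matrix genes had a median of 0.00 (0.16 under the same centring). Tie1, an endothelial receptor, was at -0.60 with 2 probes at -0.60 and -0.37, and the endothelial list had a median of -0.09.

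**Figure D3:**
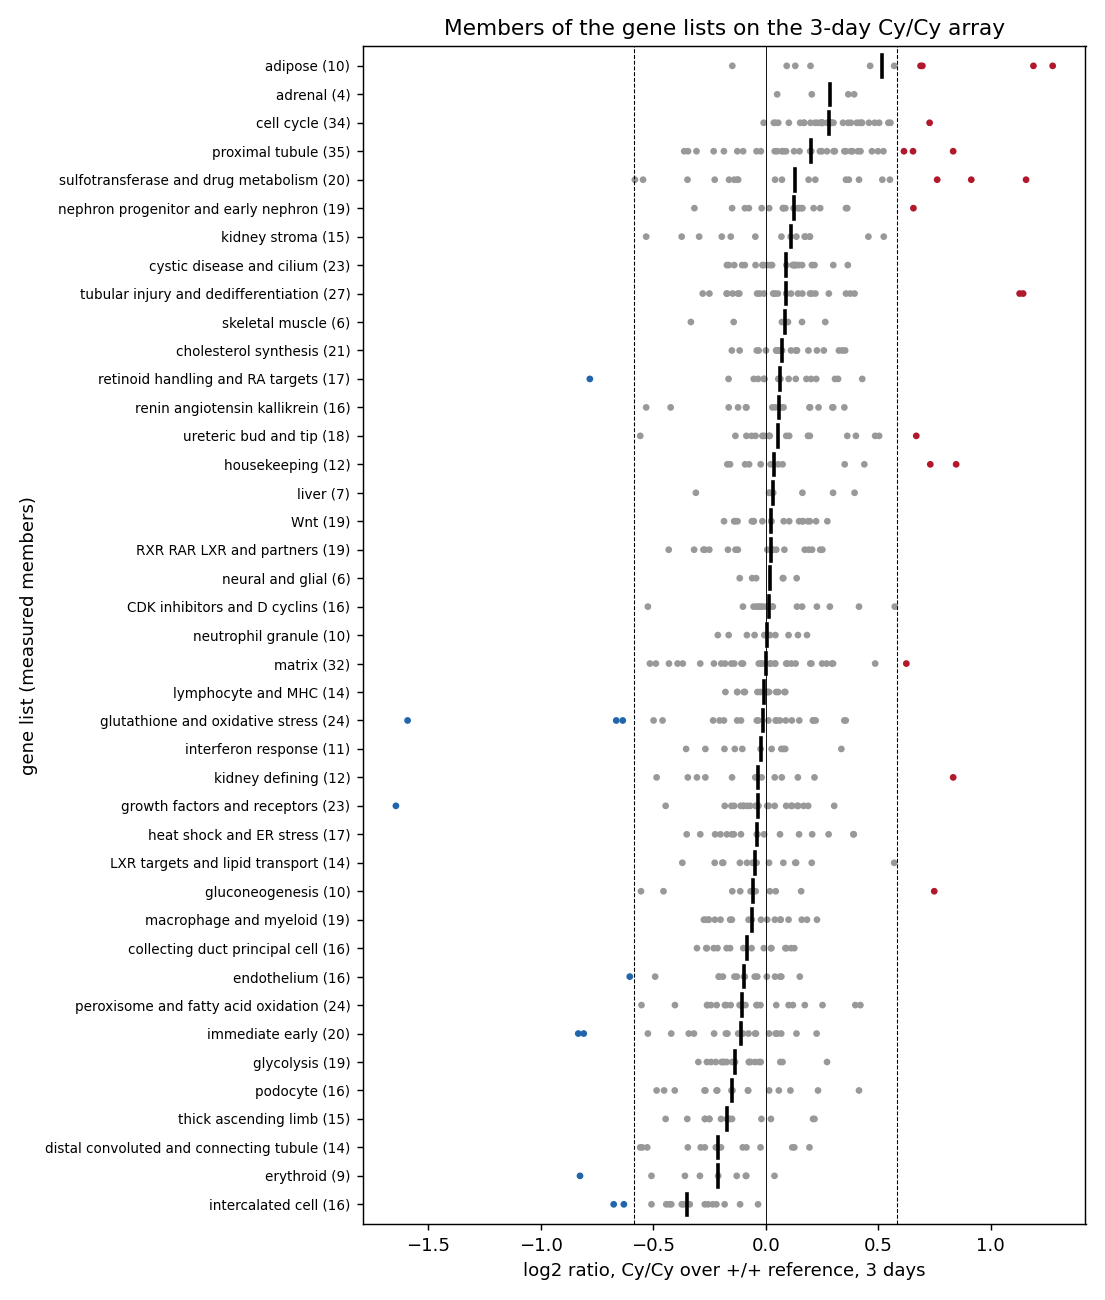
Every measured member of 41 gene lists is a point at its log2 ratio of Cy/Cy over +/+ at 3 days, with a black bar at the list median and dashed lines at 1.5-fold. Adipose, adrenal, cell cycle and proximal tubule lists have the highest medians (0.52, 0.29, 0.28 and 0.20; the adrenal one has 4 genes and gave 0.08 with the mean Cy3 of both mutant arrays as reference) and the intercalated cell list the lowest (-0.35).

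Glutathione and oxidative stress genes had a median of -0.01, which turned to 0.15 relative to the median gene under median centring. Of 24 measured members 3 were at least 1.5-fold lower (beside 0.327% of all genes) and 0 higher (beside 0.628%). Besides Hmox1 these were the glutathione transferases Gstm1, with 1611 in Cy/Cy kidney and 2553 in +/+ kidney (log2 -0.66), and Gstm5, with 5072 in Cy/Cy kidney and 7879 in +/+ kidney (log2 -0.64, 3 probes between -0.64 and -0.30). The transferases of this family are close copies, and their probes may bind more than 1 transcript.

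The RXR genes, which encode the shared partners of the retinoic acid, vitamin D, thyroid hormone and oxysterol receptors, were all below 0 and short of 1.5-fold. Rxrb had 632 in Cy/Cy kidney and 851 in +/+ kidney (log2 -0.43), Rxrg had 896 in Cy/Cy kidney and 1085 in +/+ kidney (log2 -0.28), and Rxra had 178 in Cy/Cy kidney and 199 in +/+ kidney (log2 -0.17). The 19 measured genes of the RXR, RAR and LXR list ranged between -0.43 and 0.25 with a median of 0.03, which turned to -0.10 relative to the median gene under median centring. Of 17 measured genes of retinoid handling and retinoic acid targets, Rbp4 was past 1.5-fold, and the median was 0.07 (0.11 under the same centring). The cholesterol synthesis genes had 0 of 21 past 1.5-fold and a median of 0.07 (0.14 under the same centring).

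Anks6 itself had a signal of 163 in Cy/Cy kidney and 149 in +/+ kidney (log2 0.13, 1 probe at chr5:63643642-63645033). A missense mutation need not alter the amount of transcript, so this value does not check the genotype labels. Within 10 Mb of Anks6 on chromosome 5, 105 genes were measured and 0 were past 1.5-fold, with a median of 0.03, an SD of 0.15 and a range from -0.54 (Nr4a3) to 0.35 (Coro2a). The genes past 1.5-fold were spread over all 21 chromosomes with probes, between 0.211% of measured genes on chromosome 6 and 2.05% on chromosome 9, beside 0.948% over all genes with a position.

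A further 135 genes were well above background only in the Cy/Cy channel and 149 only in the +/+ channel, and for these a fold is a bound. It sets the bright channel against the higher of the dim probe's own signal and the lowest signal well above background in that channel. Toward Cy/Cy the highest bounds were at least 1.51-fold for Fabp7, 1.49-fold for Slc36a2, 1.45-fold for Sfrp4, 1.44-fold for Sypl2 and 1.42-fold for Or51a10. Toward +/+ high bounds were at least 2.60-fold for Rhoxl, 1.44-fold for Zbtb16, 1.34-fold for Or5p60d and 1.26-fold for Fitm1. No bound other than those of Fabp7 and Rhoxl reached 1.5-fold.

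The array of Cy/Cy kidney at 7 days, with another reference pool and another slide, gave values for the same probes. Of the 71 genes at least 1.5-fold higher at 3 days, 21 were also at least 1.5-fold higher at 7 days (29.6%), where 65 of 10946 genes were (0.594%), so the 21 made up 32.3% of the 7-day list. Of the 37 lower genes 0 were at least 1.5-fold lower at 7 days, where 19 genes were (0.174%). The median log2 ratio of the 71 higher genes was 0.73 at 3 days and 0.43 at 7 days, and that of the 37 lower genes was -0.69 at 3 days and -0.09 at 7 days. Across 10946 genes the log2 ratios of both ages had a Pearson correlation of 0.33 and a Spearman correlation of 0.30, as a description of arrays that share probes, dyes and dye orientation. Age and slide cannot be told apart, so no difference between the ages was tested.

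The 21 genes held the sulfotransferase pair and other epithelial genes. Sult1c2a was at 1.16 at 3 days and 1.11 at 7 days, Sult1c2 at 0.91 at 3 days and 0.79 at 7 days, and Prss30 at 1.04 at 3 days and 0.85 at 7 days. Slco1a3 was at 0.66 at 3 days and 0.68 at 7 days, and Slc22a24 at 0.62 at both ages. Membership in the set fixes that both ratios are past 1.5-fold, so the values are a description. Of genes chosen after their values were seen, Dleu7 was at 0.78 at 3 days and 0.90 at 7 days, Folh1, a carboxypeptidase of the brush border, at 0.79 at 3 days and 0.73 at 7 days, and Acmsd, an enzyme of tryptophan breakdown, at 0.75 at 3 days and 0.81 at 7 days. The set also held Mfap5, at 1.62 at 3 days and 0.60 at 7 days, and the fat genes Retn, at 1.19 at 3 days and 0.79 at 7 days, and Adipoq, at 0.69 at 3 days and 0.97 at 7 days. Of the 21 genes 4 had a signal above 16.

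By list, proximal tubule genes had medians of 0.20 at 3 days and 0.25 at 7 days. Cell cycle genes had 0.28 at 3 days and 0.05 at 7 days, and intercalated cell genes -0.35 at 3 days and -0.08 at 7 days. Adipose genes had 0.52 at 3 days and 0.38 at 7 days. Igfbp1, the lowest gene at 3 days (-1.64), was at -0.19 at 7 days, and Hmox1 was at -1.59 at 3 days and -0.41 at 7 days.

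**Figure D4:**
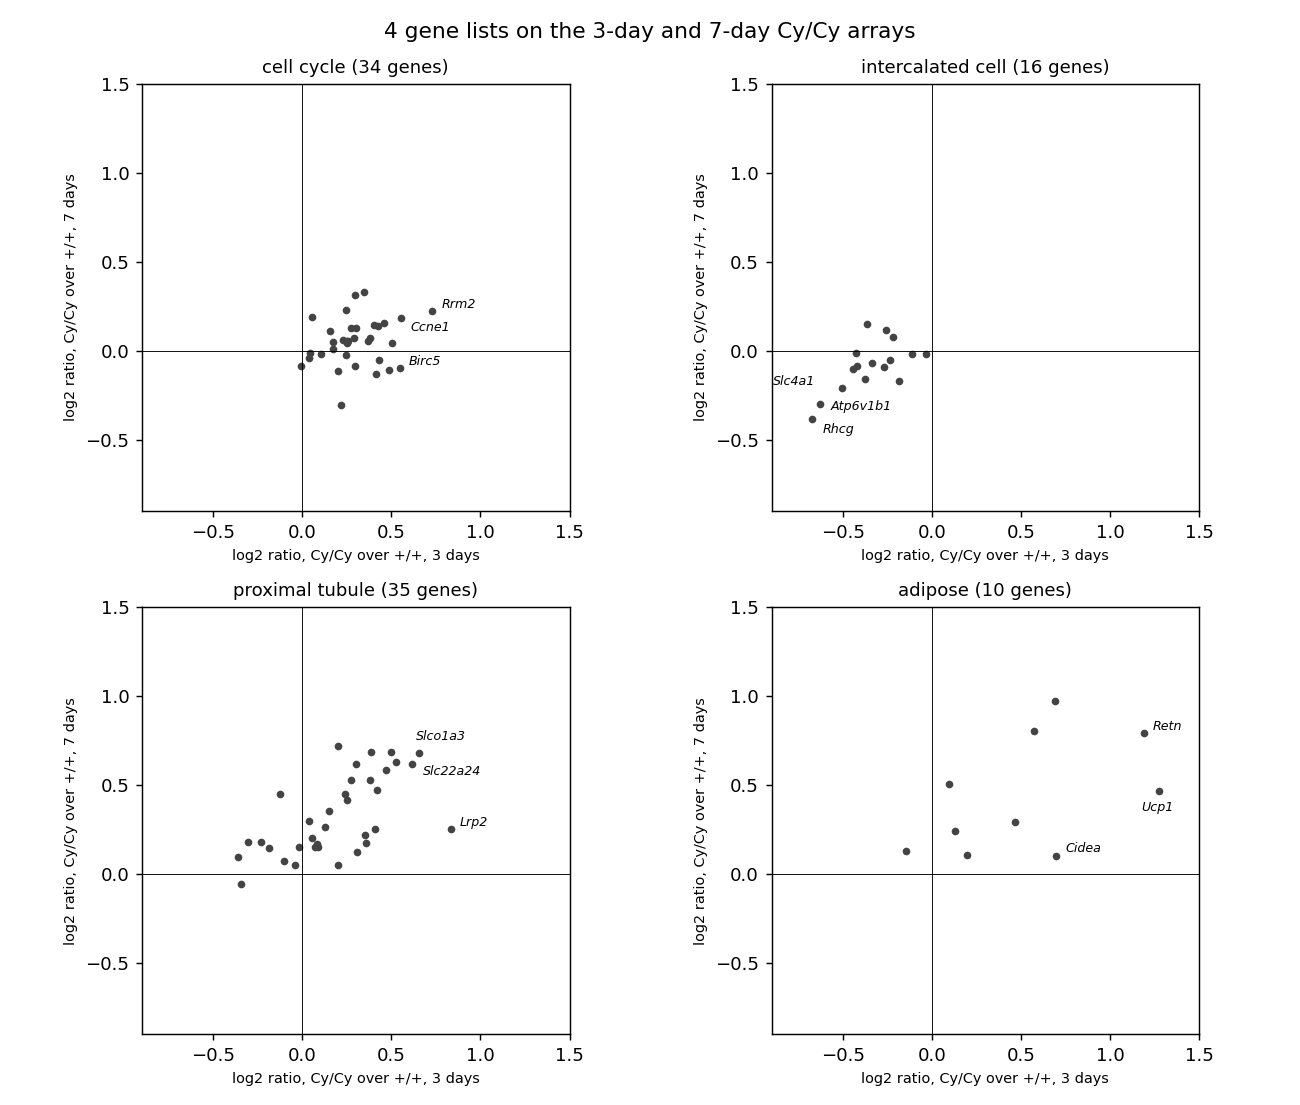
Each point is a gene of the cell cycle, intercalated cell, proximal tubule or adipose list, with its log2 ratio of Cy/Cy over +/+ at 3 days on the x axis and at 7 days on the y axis. Proximal tubule genes lie above 0 at both ages for the most part, while cell cycle genes lie right of 0 at 3 days (median 0.28) and around 0 at 7 days (median 0.05).

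The array of Cy/+ kidney at 3 days shares the +/+ pool of 3 days with the Cy/Cy array, by its label, so a high or low reference moves both. Its values are therefore given side by side. Cell cycle genes had medians of 0.28 in Cy/Cy and 0.42 in Cy/+ kidney, and proximal tubule genes 0.20 in Cy/Cy and 0.21 in Cy/+ kidney. Intercalated cell genes had -0.35 in Cy/Cy and -0.52 in Cy/+ kidney, and adipose genes 0.52 in Cy/Cy and 1.74 in Cy/+ kidney. Thick ascending limb genes had -0.17 in Cy/Cy and -0.47 in Cy/+ kidney, and podocyte genes -0.15 in Cy/Cy and -0.38 in Cy/+ kidney. Principal cell genes had -0.08 in Cy/Cy and 0.12 in Cy/+ kidney. Igfbp1 was at -1.64 in Cy/Cy and -2.01 in Cy/+ kidney, Hmox1 at -1.59 in Cy/Cy and -1.14 in Cy/+ kidney, Rbp4 at -0.78 in both, and Fkbp5 at -0.73 in Cy/Cy and -0.75 in Cy/+ kidney. Ucp1 was at 1.28 in Cy/Cy and 3.04 in Cy/+ kidney, and Retn at 1.19 in Cy/Cy and 2.68 in Cy/+ kidney. Sult1c2a was at 1.16 in Cy/Cy and 1.84 in Cy/+ kidney, and Wfdc21 at 2.38 in Cy/Cy and 2.03 in Cy/+ kidney. Rec114 was at -1.07 in Cy/Cy and -0.04 in Cy/+ kidney, and Nell2 at 1.05 in Cy/Cy and 0.37 in Cy/+ kidney. The Cy3 level of a gene, scaled between arrays, differed between these 2 arrays with an SD of 0.15 over genes on the log2 scale. This SD is of 1 channel on separate slides, so it is not on a par with the SD of 0.19 of the within-array Cy/Cy ratios. On the 3-day array labelled +/+ in both channels, the log2 ratio of Cy5 over Cy3 was 4.42 for Wfdc21, 4.86 for Mfap5, 4.78 for Ucp1, -4.32 for Sult1c2a and 0.23 for Igfbp1, so several of the genes that lead the Cy/Cy array were also far apart between channels that carry the same label. When the mean Cy3 signal of both arrays served as the reference, all 30 of the highest and lowest genes stayed past 1.5-fold in the same direction. That mean includes the Cy3 channel by which these genes were ranked, so it is no independent check of the reference.

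**Figure D5:**
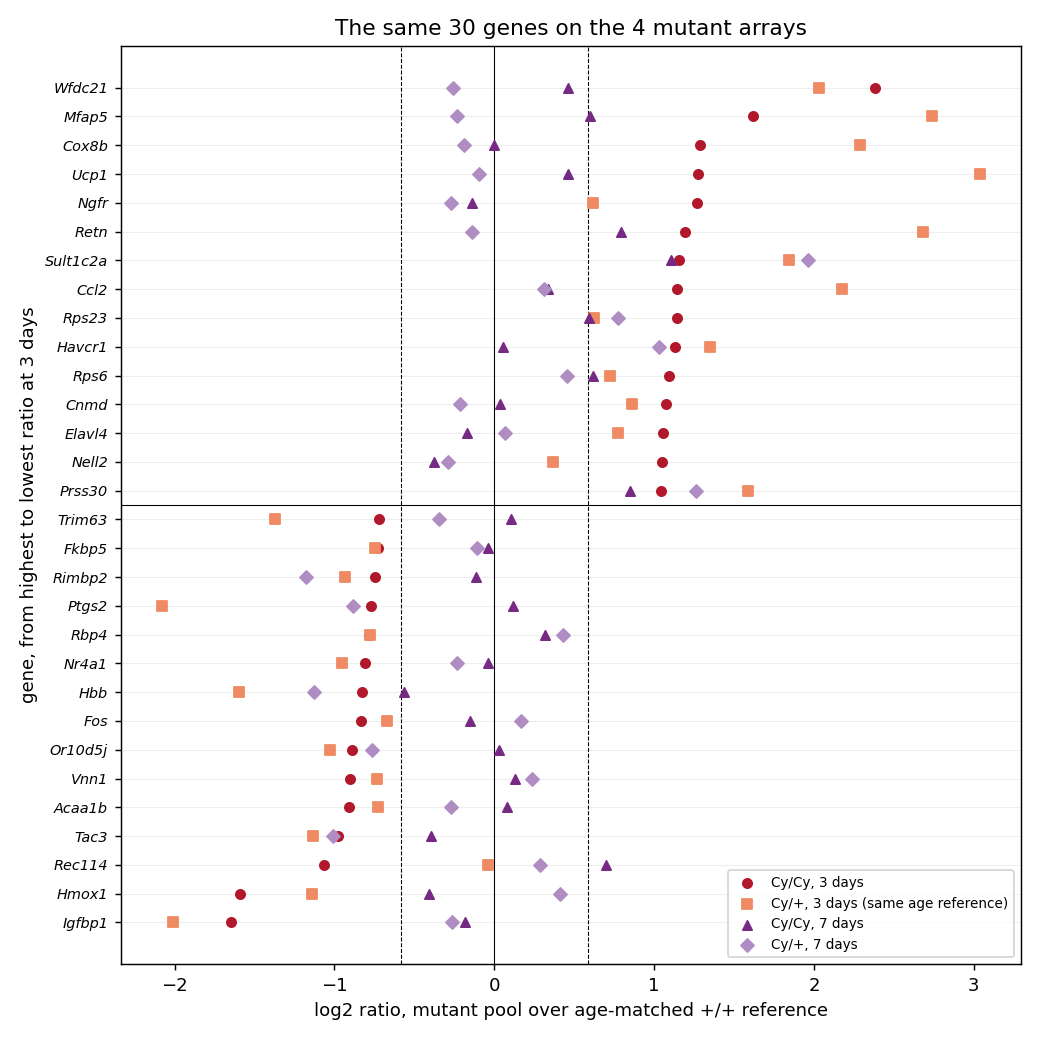
The log2 ratio of the mutant pool over the +/+ pool of its age for the 15 highest and 15 lowest genes of the 3-day Cy/Cy array, on the arrays of Cy/Cy and Cy/+ kidney at 3 and 7 days. At 3 days Igfbp1 lies at -1.64 (Cy/Cy) and -2.01 (Cy/+) and at 7 days at -0.19 (Cy/Cy) and -0.27 (Cy/+), while Sult1c2a lies above 1 on all 4 arrays.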

How the data were processed

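Spot signals and local backgrounds are intensity values from the scan, not normalized, made with Agilent Feature Extraction 9.5.1.1, per the file headers, which place probes on rat build rn3. The series' own text gives a different array and an earlier software release, and the headers were followed. The log10 ratio deposited by the authors divides the processed Cy5 by the processed Cy3 signal, per the file headers. The series' value table repeats it exactly (largest difference 0, column median 0). Per the file headers each log ratio also carries a deposited error estimate, a score on the same scale, which was not taken as a replicate error.

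With R 4.3.3 and limma 3.58.1, mean signals were background-corrected by normexp (offset 50, median local background), followed by loess within the array, with control spots and the 192 outlier-flagged spots given no weight and dropped. The offset shrinks ratios of dim genes toward 0: Cox8b had a log2 ratio of 1.29, against 2.31 from the software. Normalised signals are the loess values on the linear scale. Median signals before correction were 204 (Cy5) and 149 (Cy3), over backgrounds of 45.5 and 40. Precision is limited by there being 1 array. The normalization was checked on simulated spots with known ratios. Their dye curve was fitted to this same array, so the check does not bear on the climb at high signal.

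Names came from a gene table of assembly GRCr8, used for names only: 20098 of 41012 probes had 1 gene, 41 several and 20873 none. A gene took its brightest probe well above background in both channels. With 1 array no test was made, and 1.5-fold was the limit for a call. Named are the 15 highest and 15 lowest genes, list members past 1.5-fold and the 4 farthest from 0, Anks6, the RXR genes and 5 bounds each way. Some genes that this rule names are not reported here. The array, members and lists were chosen with earlier results of these data known. Alternatives were 9 other settings of the normalization, filters, probe choice and reference, and 1 added after seeing the data.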

Additional observations from a re-analysis of the deposited data

Results flagged for a closer look

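Rec114 was at a log2 ratio of -1.07 on the 3-day Cy/Cy array and at 0.70 on the 7-day one, past 1.5-fold in opposite directions. Its signal at 3 days was 157 in Cy/Cy kidney and 330 in +/+ kidney, and the difference between the ages was not tested.

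Probes without a gene name took no part in the comparisons. Of the 11893 that were well above background in both channels, 5 were at least 2-fold higher and 3 at least 2-fold lower in Cy/Cy kidney, and 0.681% were past 1.5-fold in either direction. The highest was at a log2 ratio of 1.75 and the lowest at -1.68, and the same probes were at 0.72 and 0.02 on the 7-day Cy/Cy array.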

How the results depend on the processing

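All 30 of the highest and lowest genes kept their direction under the 9 other settings, read against the median gene, and no named gene past 1.5-fold turned. All 30 stayed past 1.5-fold, except 1 under median centring and 1 with the median over a gene's probes. Counts at 1.5-fold were 126 higher and 91 lower with the scanner software's ratios, 113 and 66 with a normexp offset of 0, and 56 lower with the mean Cy3 of both mutant arrays as reference. At 2-fold they were 26 higher and 10 lower with the software's ratios, 5 lower with offset 0 and 5 lower with the mean Cy3. Median centring moved the median of all genes to 0.24, so it gave 915 higher and 8 lower genes at 1.5-fold (99.1% of calls higher, against 65.7%) and 100 higher at 2-fold. The software's ratios gave 58.1% and leaving out bright genes 57.5%. Relative to the median gene, median centring moved list medians to 0.11 (kidney defining), 0.37 (proximal tubule), 0.24 (gluconeogenesis), 0.15 (peroxisome), 0.15 (glutathione), -0.030 (thick ascending limb), 0.18 (ureteric), 0.16 (matrix), 0.14 (CDK inhibitors), -0.10 (RXR), 0.074 (glycolysis), -0.15 (neutrophil), -0.17 (skeletal muscle) and 0.35 (housekeeping). The adrenal median was 0.074 with probes above background on at least 2 arrays and 0.084 with the mean Cy3. The cause was not tested. No paired analysis was possible because each group has 1 sample. Dim genes are limited by signal over background, and bright ones by the climb of the ratio.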
